A study of Mus musculus with 8 samples.

Results

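The genes described here are the 9 that encode the insulator protein CTCF and the core and loading machinery of cohesin: Ctcf, Rad21, Smc3, Smc1a, Stag1, Stag2, Nipbl, Mau2 and Wapl. They were chosen by name, for the complex they encode, and not by any measured value, and they are 9 of the 21536 protein-coding genes of the RefSeq table that could be given a strand. For each gene the peaks overlapping its RefSeq interval, extended by 3 kb on both sides, were taken from every deposited list. Gene positions are those of GRCm38.p6.

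Cohesin is a ring-shaped complex that holds sister chromatids together and extrudes chromatin loops. Smc1a and Smc3 encode the 2 long arms of the ring, Rad21 the kleisin that closes it, and Stag1 and Stag2 alternative subunits that bind the kleisin. Nipbl and Mau2 encode the loader, Wapl encodes the factor that releases cohesin from chromatin, and Ctcf encodes the zinc-finger protein at which extruding cohesin stops. Loops of this kind bring enhancers and promoters together at many loci of erythroid cells, and most of these genes are needed in every dividing cell.

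The cells were MEL, a mouse erythroid leukaemia line, as a dCAS control line and as a line with knockdown of Myrlin (KD), an enhancer RNA transcribed upstream of Myb. CUT&Tag, in which an antibody tethers a transposase to chromatin, was carried out against 2 forms of the C-terminal domain of Rpb1, the largest subunit of RNA polymerase II. Phosphoserine 5 (Ser5P) marks polymerase near initiation and phosphoserine 2 (Ser2P) accumulates during elongation. Each antibody was used on 2 biological replicates of each line, which gave 8 libraries in 4 groups of 2. The labels describe the lines as CRISPR-edited and do not say whether each is 1 clone or a pool, or how the replicate cultures were separated. Every p-value therefore reflects only how these libraries vary, and that variation may be technical. The lists measure polymerase and not RNA, so the knockdown itself was not checked here.

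The lists held 20793 to 32125 peaks per library. Relative depth, read as the most frequent background pileup that MACS2 used in a library, ran from 0.439 in Ser2P control 2 to 1.12 in Ser2P KD 1. Both Ser2P KD libraries (1.12 and 1.03) were deeper than both Ser2P controls (0.78 and 0.439), and the Ser5P KD libraries (0.649 and 0.841) were deeper than the Ser5P controls (0.566 and 0.639). Median peak width was 1.08 times the control value in the Ser5P KD libraries and 1.18 times in the Ser2P KD libraries. At promoters and for Ser2P over gene bodies, covered lengths leaned to the KD line over all genes, and for Ser5P over gene bodies they did not. Erythroid marker genes carried Ser5P at a start in all 4 Ser5P libraries for 7 of 12 (40.5% of all genes), among them Gata1, Klf1, Tal1 and Epor. Gfi1b carried it in 3 of the 4 libraries, Hba-a1 in 2, and Hbb-bt, Alas2 and Slc4a1 in none. No gene among the 8 lymphoid, 8 myeloid and 8 non-haematopoietic markers carried it in all 4. Col1a1 had Ser5P in 3 of the 4 libraries, and Cd79a, Lck, Csf1r and Col1a1 had Ser2P over the gene in all 4 Ser2P libraries.

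Promoter sequences are given for genes whose start carried peaks of both marks in all 8 libraries, to show which elements lie near that start. The Ctcf summits, −469 to −295 bp from its RefSeq start, lie upstream of the bases printed. RefSeq starts were found in the promoter table for 6 of the 9 genes. For 4 of them the sequence runs from 250 bases before the start through 30 bases from it, in the direction of transcription, with capitals marking matches to an ETS core (CGGAAG) or a YY1 core (GCCATNTT) on either strand. Ctcf lies at chr8:105636288-105636567, Smc3 at chr19:53600146-53600425, Smc1a at chrX:152016178-152016457 and Stag1 at chr9:100643198-100643477, all on the plus strand of GRCm38.p6 (RefSeq).
Ctcf: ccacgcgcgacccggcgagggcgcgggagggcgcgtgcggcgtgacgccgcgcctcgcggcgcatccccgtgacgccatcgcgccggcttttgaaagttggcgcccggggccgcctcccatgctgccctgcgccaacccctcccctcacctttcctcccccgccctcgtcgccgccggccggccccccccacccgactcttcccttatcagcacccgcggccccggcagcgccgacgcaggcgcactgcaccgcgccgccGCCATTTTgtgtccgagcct
Smc3: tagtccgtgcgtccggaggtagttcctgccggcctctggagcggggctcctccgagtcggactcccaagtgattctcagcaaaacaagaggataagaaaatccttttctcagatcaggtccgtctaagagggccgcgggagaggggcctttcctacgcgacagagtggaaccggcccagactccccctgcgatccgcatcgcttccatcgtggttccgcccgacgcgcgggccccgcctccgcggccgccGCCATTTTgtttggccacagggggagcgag
Smc1a: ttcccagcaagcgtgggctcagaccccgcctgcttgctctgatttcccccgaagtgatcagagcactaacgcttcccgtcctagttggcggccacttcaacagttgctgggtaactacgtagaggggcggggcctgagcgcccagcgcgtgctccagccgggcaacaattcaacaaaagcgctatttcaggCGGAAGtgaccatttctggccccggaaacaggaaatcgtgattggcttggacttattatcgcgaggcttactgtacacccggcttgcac
Stag1: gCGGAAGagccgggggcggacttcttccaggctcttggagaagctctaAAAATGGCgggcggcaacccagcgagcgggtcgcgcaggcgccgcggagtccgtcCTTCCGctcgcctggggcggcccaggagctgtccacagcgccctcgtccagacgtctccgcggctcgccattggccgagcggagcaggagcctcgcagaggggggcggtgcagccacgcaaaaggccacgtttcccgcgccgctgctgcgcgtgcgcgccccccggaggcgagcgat

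The motifs were picked after these sequences had been seen, and a match is only a run of letters. Ctcf and Smc3 carried the same 8 letters, GCCATTTT, at or just after the start. The YY1 core began at 10 bp in Ctcf and at 0 bp in Smc3, counting the first transcribed base as 0. Stag1 held it on the other strand at −202 bp. That core was present in 6.37% of 21263 RefSeq promoters of 300 bases. The ETS core was found in Smc1a at −59 bp, in Stag1 at −249 and −147 bp, in Mau2 at 5 bp and in Wapl at −173 bp, against 21.1% of all promoters. All 6 held a GC box (GGGCGG), as did 46.2% of promoters. Stag1 and Wapl held the NRF1 site (6.38% of promoters), and Smc1a, Stag1 and Wapl held CCAAT (38.2%). None of the 6 windows held TATAAA (12.6% of promoters), the GATA letters AGATAA (9.65%) or a CTCF core (2.34%). Only these letters, on either strand, were searched, and other GATA letters were not. Base composition ran from 56% G and C in Mau2 to 75.3% in Ctcf, beside a median of 56.3% over all promoters.

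Polymerase was found at a start of every one of the 6 genes with a RefSeq start. A peak lay within 1000 bp of a RefSeq start in all 8 libraries for Ctcf, Smc3, Smc1a, Stag1, Mau2 and Wapl, as for 37.8% of the 17492 genes with such a start. When the window was instead placed at the outer 5′ end of the gene interval, 5 of the 9 genes (Ctcf, Smc3, Smc1a, Stag2 and Mau2) had Ser5P in all 4 Ser5P libraries, against 37.7% of all genes. These windows differ in position. The RefSeq start of Stag1 lay 45739 bp inside its outer 5′ end and that of Wapl 1549 bp inside. Rad21, Stag2 and Nipbl had no RefSeq start in the promoter table and were described by their peaks from the outer 5′ end. Whether their inner peaks mark starts of other transcripts was not checked. The map of peaks along the genes shows each position.

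**Figure D1:**
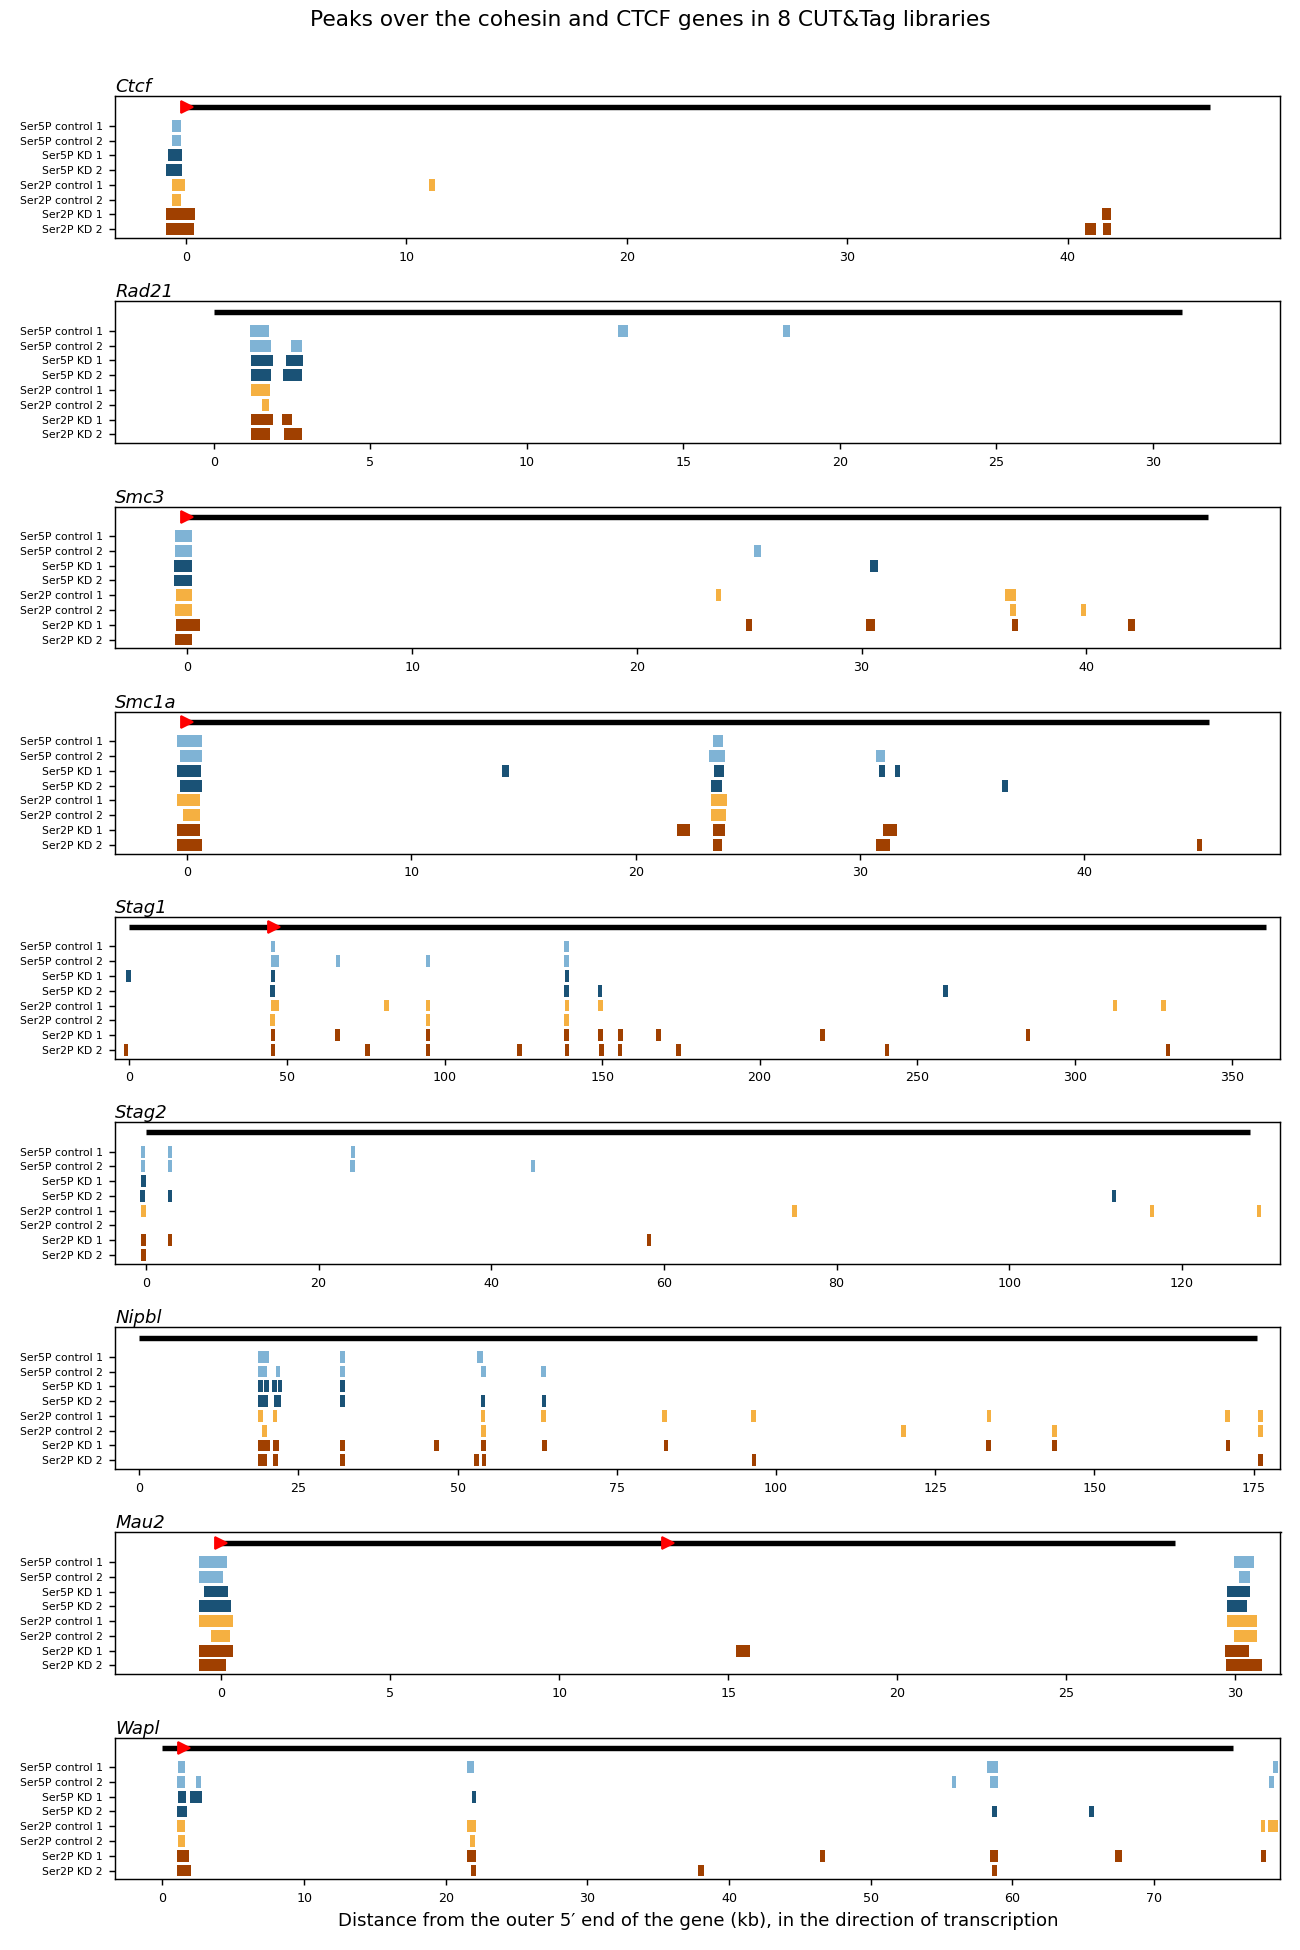
Peaks along the 9 genes, with the distance from the outer 5′ end in kb on the horizontal axis and 1 row for each of the 8 libraries (light blue Ser5P control, dark blue Ser5P KD, light orange Ser2P control, dark orange Ser2P KD). The black bar is the gene, red arrowheads are RefSeq starts, and very narrow peaks are drawn at a minimum width. Peaks stack at the start of Ctcf, Smc3, Smc1a and Mau2 in all 8 libraries. They are missing at the outer 5′ end of Rad21 and Nipbl, for which no RefSeq start was available. Of the 79 sites 41 are in 1 library.

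Ctcf had 1 promoter peak in each library, and it was wider in the KD line for both antibodies (chr8:105636474-105682922, plus strand). Of the promoter window the Ser5P peak covered 440 and 433 bp in the control line against 641 and 715 bp in the KD line. For Ser2P it covered 593 and 426 bp in the control line against 1338 and 1274 bp in the KD line. The groups did not overlap for either antibody. Mean coverage was 436.5 ± 4.95 bp (SD, n = 2) against 678.0 ± 52.3 bp for Ser5P, a ratio of 1.55, and 509.5 ± 118 bp against 1306.0 ± 45.3 bp for Ser2P, a ratio of 2.56. Over the 7426 genes with a promoter covered in all 8 libraries the median ratio was 1.05 for Ser5P and 1.21 for Ser2P, and the ratio of Ctcf ranked in the top 5.2% and the top 1.35%. Ctcf was singled out after its values were seen.

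The added width of the Ctcf peak lay on both sides for Ser2P and mainly on the upstream side for Ser5P. In the Ser5P controls the peak ran from −658 and −651 bp to −219 bp from the outer 5′ end, and it ended before the first base of the gene. In the Ser5P KD libraries it began at −820 and −918 bp and ended at −180 and −204 bp. The Ser2P control peaks ended at −59 and −210 bp, whereas those of the KD libraries ran past the start to 419 and 360 bp. Thus the bases at the RefSeq start of Ctcf, with the YY1 letters, lay inside a peak in the 2 Ser2P KD libraries and in none of the other 6. The summit lay at −405 to −400 bp in 7 libraries and lay at −231 bp in Ser2P KD 1. A long non-coding RNA gene, Gm5914, starts 1000 bp inside Ctcf on the opposite strand, and CUT&Tag does not tell the strands apart.

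**Figure D2:**
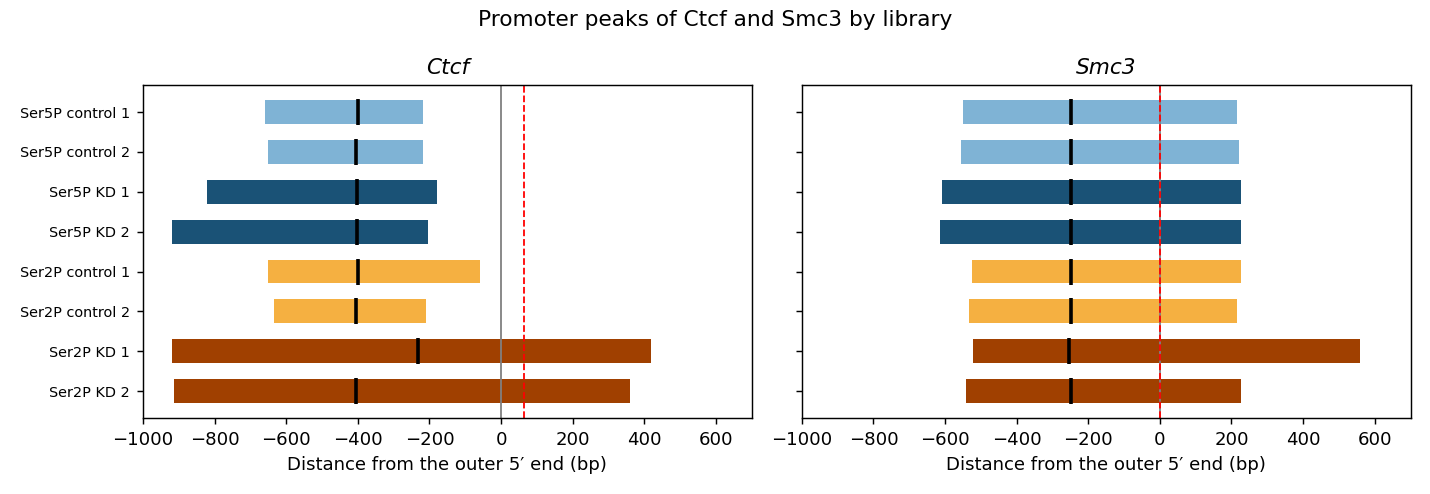
Promoter peaks of Ctcf and Smc3 as bars over the distance from the outer 5′ end in bp, 1 row for each library (light blue Ser5P control, dark blue Ser5P KD, light orange Ser2P control, dark orange Ser2P KD). Black ticks are summits, the grey line is the outer 5′ end and the dashed red line the RefSeq start. The Ctcf peaks of the 2 Ser2P KD libraries span 1338 and 1274 bp and cross the start, and the Smc3 summits align at −253 to −248 bp.

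No adjusted p of Ctcf passed the threshold of 0.05. The Ser5P promoter share was 12.1 percentage points of the window higher in the KD line (SE 3.25, 95% interval 2.84 to 21.3; limma adjusted p = 0.426). In a window of 500 bp on each side it was 2.7 points higher (limma adjusted p = 0.75). The Ser2P promoter share was 39.8 points higher (SE 5.06, 25.9 to 53.7; limma adjusted p = 0.254), a test added after the values were seen. The median over all genes tested was 1.77 points for Ser5P and 7.35 points for Ser2P. The KD difference in Ser2P exceeded that in Ser5P by 27.7 points (SE 5.98; limma adjusted p = 0.355). With covered shares divided by the library mean, Ctcf was higher in the KD line by 0.29 of that mean for Ser5P (limma adjusted p = 0.614). For Ser2P it was higher by 0.876 of that mean (limma adjusted p = 0.528). Ser2P KD libraries were the deepest of all, and the part of depth in the width was not tested. In the single Ser2P control of greatest depth, 0.78, the peak covered 593 bp. Thinning to the shallowest library removes peaks but cannot narrow those that remain, so it does not bear on width. An exact permutation test of 2 libraries against 2 cannot give a two-sided p below 0.33.

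The 2 arms of the ring had a promoter peak in every library. Smc3 (chr19:53600396-53645831, plus strand), an arm of the ring, had the highest-ranking promoter peak of the set. It stood in the top 0.369% to 0.89% of each list when peaks were ranked by the p-value of the authors. Its Ser5P peak covered 766 and 776 bp in the control line against 836 and 841 bp in the KD line. Its Ser2P peak covered 752 and 749 bp in the control line against 1080 and 767 bp in the KD line. The KD values were above the control values for both antibodies without overlap, by 1.09 times for Ser5P and 1.23 times for Ser2P, close to the medians over all genes. The summit lay between −253 and −248 bp in all 8 libraries, the tightest of the 6 starts.

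Counts of this kind were common. Both KD libraries covered more of the promoter than both controls in 2 genes for Ser5P, Ctcf and Smc3 (25.6% of all genes covered), and in 3 for Ser2P, Ctcf, Smc3 and Smc1a (46.1%). Without Ser2P control 1 or without Ser2P KD 1 the Ser2P count was 5, with 77.4% and 60.4% of all genes. Ctcf and Smc3 did so for both antibodies, as did 15.7% of the genes covered in all 8 libraries. No gene of the 9 was covered less in both KD libraries than in both controls at the outer 5′ end for Ser5P (10.8% of covered genes).

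Smc1a (chrX:152016428-152061973, plus strand), the other arm, had a broad start peak that differed little between lines. Ser5P covered 1084 and 980 bp in the control line against 1068 and 1000 bp in the KD line, so the groups overlapped. Ser2P covered 1011 and 765 bp in the control line against 1012 and 1091 bp in the KD line, which put the KD values above by a margin of 1 bp. The KD minus control difference in Ser5P was 0.0999 points (95% interval −10.5 to 10.7; limma adjusted p = 0.998). Its peak ranked in the top 0.831% to 3.03% of the lists. Ribc1, a gene on the opposite strand, begins 458 bp inside Smc1a, so the peak cannot be assigned to either gene alone.

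A second Smc1a site, 23.7 kb inside the gene, was present in all 8 libraries. Gm15267, a pseudogene on the opposite strand, starts 27084 bp inside Smc1a. A further Smc1a site at 31.3 kb was found in 2 Ser5P libraries and in both Ser2P KD libraries, and in no Ser2P control. Over the gene body and 3 kb past its end, Ser2P covered 711 and 667 bp in the control line against 1722 and 1233 bp in the KD line. That share was 1.66 points higher in the KD line (SE 0.521; limma adjusted p = 0.494). It was 0.0946 points higher among peaks of −log10 q of at least 5 (limma adjusted p = 0.964) and 0.74 points higher with lists cut to equal size (limma adjusted p = 0.492).

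Rad21 (chr15:51962604-51993538, minus strand), the kleisin, had no peak at its outer 5′ end and a constant one just inside. In every library a peak had its summit 1567 to 1675 bp into the gene. No RefSeq start was available for Rad21, and whether this peak marks the start of a transcript was not checked. A second site at 2.52 kb was found in 3 Ser5P libraries and in both Ser2P KD libraries, and in no Ser2P control. Another gene of the table, Gm52217, spans −3027 to 2563 bp, so this region is shared. The Ser2P coverage of the gene body was 609 and 227 bp in the control line against 1001 and 1167 bp in the KD line, a ratio of 2.59. Ser5P covered 1187 and 1004 bp in the control line against 1248 and 1228 bp in the KD line, so the groups overlapped for neither antibody (15.2% of covered genes had both Ser5P KD libraries higher). The Ser2P share was 2.02 points higher in the KD line (SE 0.596; limma adjusted p = 0.476). For the Rad21 body alone, Ser2P minus Ser5P coverage was −1.44 points (SE 0.501; limma adjusted p = 0.581), and −0.46 points among peaks of −log10 q of at least 5.

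Stag1 (chr9:100597709-100958544, plus strand) is the longest of the 9 genes at 360836 bp, and its polymerase peak marked the inner start. At the RefSeq start Ser5P covered 932 and 1129 bp in the control line against 879 and 841 bp in the KD line. Here the controls were higher without overlap, at a KD to control ratio of 0.835, which was seen in 10.4% of genes with a covered RefSeq start (limma adjusted p = 0.725). The mean difference was −170.5 bp, and it was −61.5 bp with the stricter q or equal lists and −72.0 bp without Ser5P control 2. Ser2P at the same start covered 991 and 874 bp in the control line against 906 and 995 bp in the KD line, with overlap. The outer 5′ end had a Ser5P peak in 1 library, Ser5P KD 1. A site 139 kb into the gene was present in all 8 libraries. At the RefSeq start the Stag1 Ser5P summits at −289 to −120 bp lay upstream of its Ser2P summits at −99 to −50 bp, by 94.0 bp on average (SE 43.3; limma adjusted p = 0.697).

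Stag2 (chrX:42149297-42277186, plus strand), the other kleisin-binding subunit, had the narrowest promoter peak. Ser5P covered 304 and 321 bp in the control line against 321 and 291 bp in the KD line. Ser2P covered 318 and 0 bp in the control line against 306 and 365 bp in the KD line. The promoter was thus marked in 7 of 8 libraries, and the exception, Ser2P control 2, was the shallowest. No site of Stag2 was shared by all 8 libraries. A Ser5P site at 24.0 kb was present in both controls and in neither KD library (4.13% of all Ser5P sites had that pattern).

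**Figure D3:**
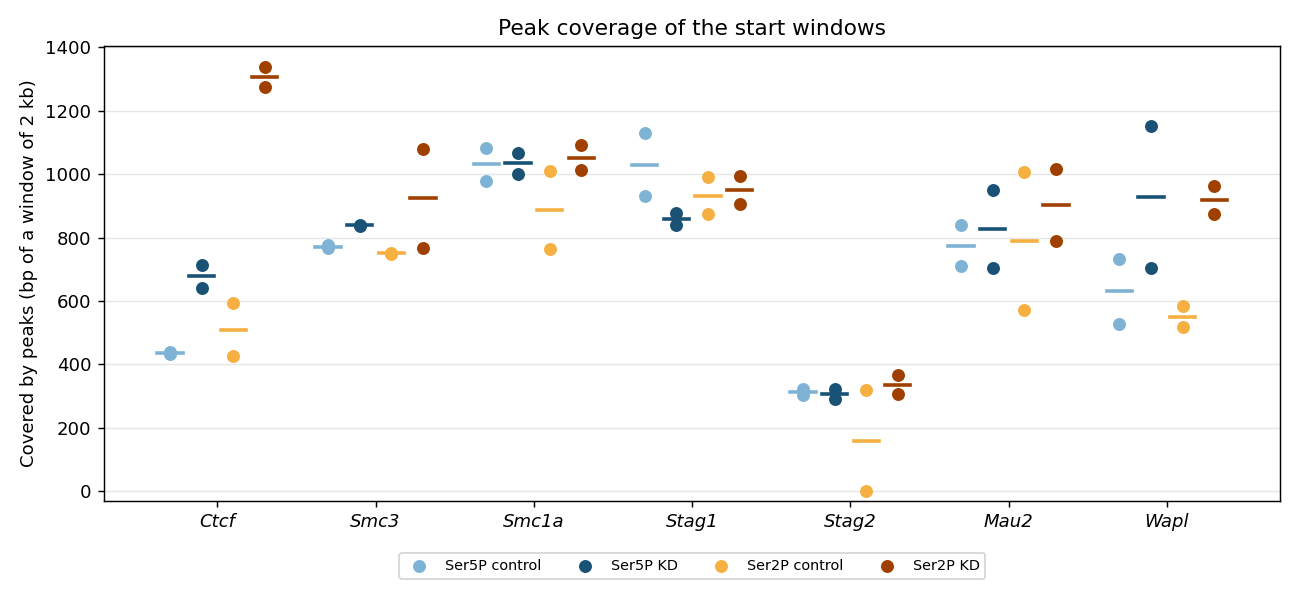
Base pairs covered by peaks within 1000 bp of the start for 7 genes, with the RefSeq start used for all but Stag2, which is shown at its outer 5′ end. Points are the 2 libraries of a group (light blue Ser5P control, dark blue Ser5P KD, light orange Ser2P control, dark orange Ser2P KD) and short lines are their means. The Ser2P KD points of Ctcf, 1338 and 1274 bp, stand furthest from their controls.

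The loader genes differed in where polymerase lay. Nipbl (chr15:8289824-8465315, minus strand), whose protein loads cohesin, had no peak within 1000 bp of its outer 5′ end. It had no RefSeq start in the promoter table, and whether an inner site marks a start was not checked. Its first site in all 8 libraries was centred 19.7 kb into the gene, near the edge of LOC102634078, a gene of the table that spans 19452 to 30203 bp. Sites followed at 21.7 kb in 6 libraries, 32.0 kb in 6 and 53.6 kb in 7. The 32.0 kb site was present in all 4 Ser5P libraries and both Ser2P KD libraries, and in no Ser2P control. Past the site at 63.6 kb every Nipbl site was seen with Ser2P only. Ser2P over the body and 3′ end covered 3729 and 1759 bp in the control line against 5356 and 3903 bp in the KD line, a ratio of 1.69. Ser5P covered 2806 and 2907 bp in the control line against 2431 and 4003 bp in the KD line, with overlap.

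Mau2 (chr8:70014527-70042734, minus strand), the partner of Nipbl, was marked at its ends and hardly at all between them. At the start Ser5P covered 839 and 710 bp in the control line against 703 and 949 bp in the KD line, and Ser2P covered 1007 and 573 bp against 1015 and 788 bp. The groups overlapped for both antibodies. Sugp1 starts 35 bp away on the opposite strand, so the peak belongs to a shared promoter. A site centred 2042 bp past the 3′ end was present in all 8 libraries. Peaks at the 3′ end were found in all 4 Ser5P libraries for 9.52% of genes and in all 4 Ser2P libraries for 9.87%. There Ser5P covered 608 and 336 bp in the control line against 675 and 593 bp in the KD line. Ser2P covered 885 and 671 bp against 733 and 1073 bp. No other member had a 3′-end peak in every library.

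Wapl (chr14:34672379-34747983, plus strand), the release factor, had KD libraries below the controls for Ser5P and above them for Ser2P over its body and 3′ end. The pattern did not hold among stronger peaks, in lists of equal size or after thinning. That window begins 1000 bp inside the outer 5′ end, so it includes the peak at the RefSeq start, 1549 bp inside. At the RefSeq start of Wapl, Ser5P covered 529 and 732 bp in the control line against 1152 and 703 bp in the KD line, with overlap. Ser2P covered 584 and 517 bp there in the control line against 874 and 962 bp in the KD line, a ratio of 1.67 (47.2% of genes with a covered RefSeq start were higher in both KD libraries). A non-coding RNA gene on the opposite strand, 5830448L01Rik, starts 2289 bp inside Wapl, and the Wapl start lies within its interval.

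Over the Wapl gene body and 3 kb past it, Ser5P covered 1922 and 2011 bp in the control line against 1677 and 1310 bp in the KD line. Ser2P covered 1919 and 735 bp in the control line against 3090 and 2064 bp in the KD line. The KD to control ratio was 0.759 for Ser5P and 1.94 for Ser2P, and the groups overlapped for neither antibody (15.6% of covered genes had both Ser5P KD libraries lower). Of the 9163 genes covered by both marks 4.66% had both patterns, and Wapl was the only member among them. Over the body without the 3′ end, Ser5P covered 1710 and 1688 bp in the control line against 1677 and 1310 bp in the KD line, so the groups were nearly in contact. With peaks of −log10 q of at least 5, with lists cut to equal size and after thinning the groups overlapped for both antibodies. The mean Ser5P difference, −473.0 bp, was −526.5, 340.0 and −100.5 bp in these settings, so it turned with equal lists, and that of Ser2P, 1250.0 bp, was 573.0, 179.0 and 690.5 bp. The difference between the 2 KD effects was 2.22 points of the window (SE 0.962; limma adjusted p = 0.663). At the 3′ end Ser5P covered 212 and 323 bp in the control line and 0 bp in both KD libraries. That pattern was seen in 0.571% of all genes, of which 20.9% had Ser5P there in at least 1 library. The 2 control peaks were weak, with −log10 q of 2.38 and 1.4, where the lowest in their lists were 1.31 and 1.3. Site by site, the one at 78.4 kb was control-only for Ser5P and the one at 58.6 kb was KD-only for Ser2P.

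**Figure D4:**
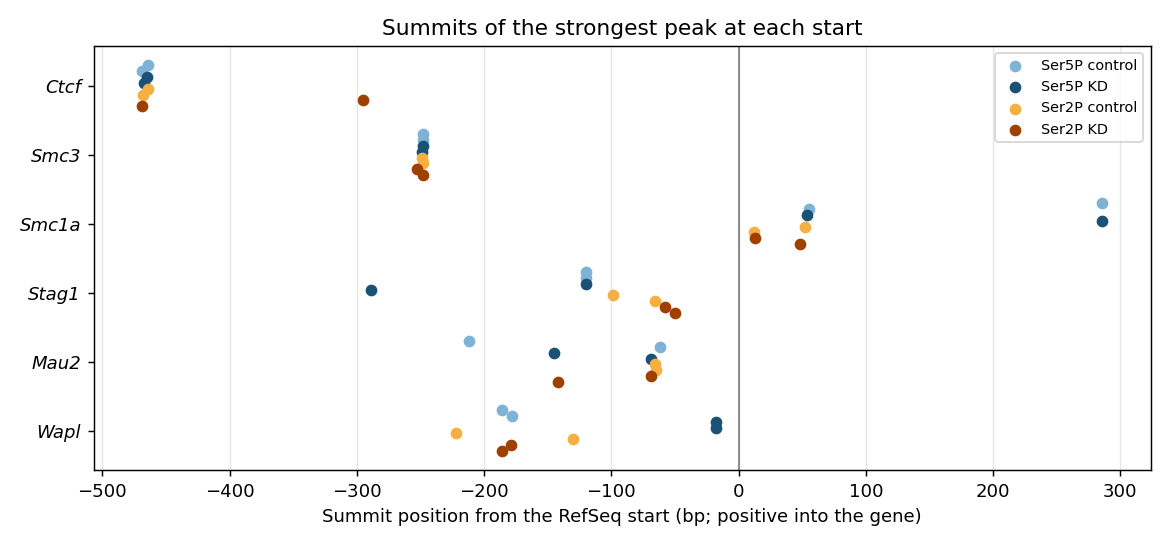
Summit of the strongest peak at the RefSeq start of 6 genes, in bp from the start with positive values into the gene, 1 point per library (light blue Ser5P control, dark blue Ser5P KD, light orange Ser2P control, dark orange Ser2P KD). Smc3 summits fall within −253 to −248 bp in all 8 libraries, Smc1a summits lie inside the gene at 12 to 286 bp, and those of the other 4 genes lie upstream.

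The difference in summit position between the marks passed the test in no member. Over the 4 genes with an outer promoter peak in all 8 libraries, Ser2P minus Ser5P was −1.25 bp in Smc3 (SE 10.6), 42.2 bp in Ctcf (SE 40.6), 36.5 bp in Mau2 (SE 41.3) and −139 bp in Smc1a (SE 68.3). Their limma adjusted p ran from 0.736 to 1.0, and 7 and 10 of 7426 genes passed with Ser2P further in and further out (0.0943% and 0.135%). Smc1a had its summit at 286 bp in Ser5P control 1 and Ser5P KD 2 and at 12 to 55 bp in the other 6 libraries. The Wapl summit lay at −18 bp in both Ser5P KD libraries and at −222 to −130 bp in the other 6. Summit position was not tested between the lines, and how many of all genes showed such a separation was not counted.

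Ser2P was found at more places than Ser5P in the 9 genes, as over all sites. The 9 extended genes held 79 merged sites, of which 40 were seen with Ser2P alone (34.0% of all 56005 sites), 12 with Ser5P alone (15.2%) and 27 with both (50.8%). In 1 library each stood 41 sites (51.9%, against 39.3% of all sites), and 11 were in all 8 libraries (13.9%, against 21.0%). Peaks in these windows numbered 21 and 29 in the Ser5P controls, 24 and 24 in the Ser5P KD libraries, 35 and 19 in the Ser2P controls and 44 and 35 in the Ser2P KD libraries. The fewest came from the shallowest library and the most from the deepest. Gene bodies were marked in all 8 libraries in 5 of the 9, Rad21, Smc1a, Stag1, Nipbl and Wapl, against 18.3% of genes over 3000 bp. In Stag1 and Wapl these include the peaks at the inner RefSeq starts.

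Per length the genes differed. The body counts include the peaks at the inner RefSeq starts of Stag1 and Wapl and the constant inner peak of Rad21. Peaks within 1000 bp of the outer 5′ end are left out, so the order depends on where the gene interval begins. The Ser5P body peaks numbered 7.78 ± 1.73 per 100 kb in Rad21 (SD, n = 4 libraries), 5.17 ± 2.89 in Smc1a, 4.42 ± 0.679 in Wapl and 2.59 ± 0.576 in Nipbl. Stag2 had 1.39 ± 1.0, Smc3 1.15 ± 1.33 and Stag1 0.906 ± 0.418, and no Ser5P body peak was called in Ctcf or Mau2. Neighbours in this order differed by less than the sum of their SDs, apart from Wapl and Nipbl and from Stag1 and the genes at 0. Ser2P body peaks ran from 0.794 ± 0.917 per 100 kb in Stag2 to 5.18 ± 2.0 in Rad21, a gap larger than the sum of the 2 SDs.

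Ser2P coverage of the body and 3′ end leaned to the KD line in most of the 9 genes. The lean was smaller among stronger peaks, in lists of equal size and after thinning. This window includes the peaks at the inner RefSeq starts of Stag1 and Wapl. All Ser2P peaks of Rad21 lay at its sites 1.52 and 2.52 kb into the gene. Both KD libraries covered more of the body and 3′ end than both controls in 7 genes, Ctcf, Rad21, Smc1a, Stag1, Nipbl, Mau2 and Wapl, against 33.9% of covered genes. With peaks of −log10 q of at least 5 the count was 3 (33.1% of covered genes), with lists cut to equal size it was 4 (29.8%), and after thinning to the shallowest library it was 1, Rad21 (22.4%). Leaving out 1 Ser2P library at a time gave 7 or 8, but the share of covered genes also rose, to between 36.7% and 64.3%. The Stag1 body had 3151 and 1341 bp of Ser2P in the control line against 4320 and 4420 bp in the KD line, a ratio of 1.95. The Ctcf body, with 278 and 0 bp in the control line against 399 and 856 bp in the KD line, rested on 1 to 2 peaks per library. Smc3, with 740 and 466 bp against 1212 and 0 bp, and Stag2, with 778 and 0 bp against 608 and 0 bp, overlapped between lines.

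**Figure D5:**
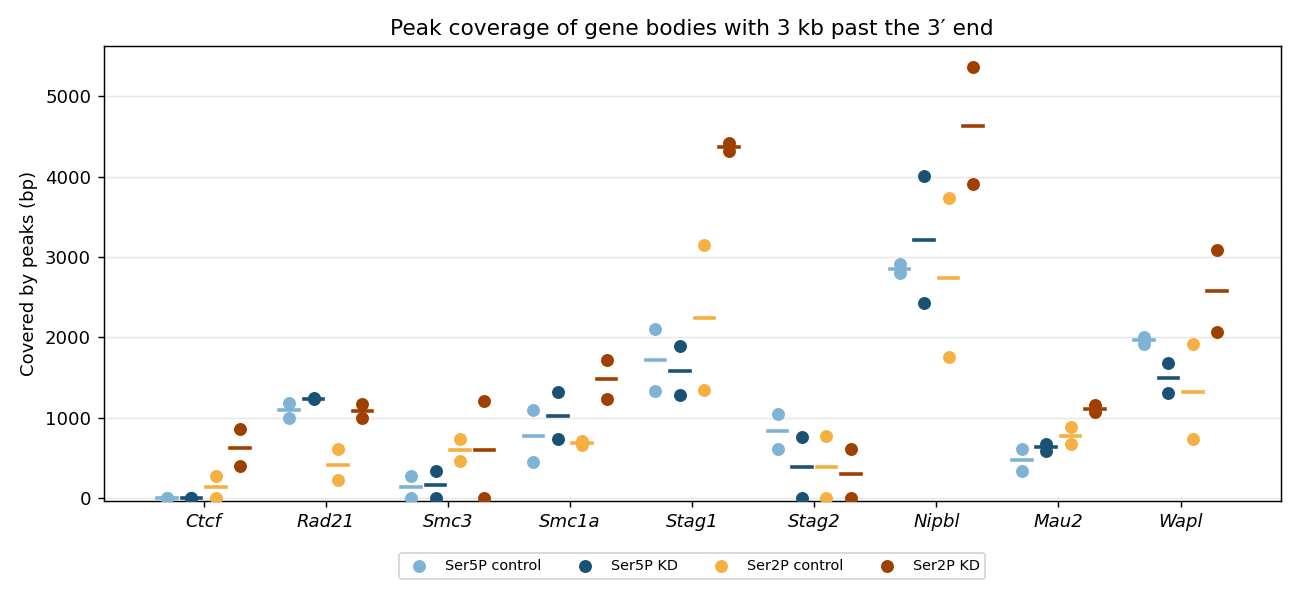
Base pairs covered by peaks from 1000 bp inside the 5′ end to 3 kb past the 3′ end of the 9 genes. Points are the 2 libraries of a group (light blue Ser5P control, dark blue Ser5P KD, light orange Ser2P control, dark orange Ser2P KD) and short lines are their means. Ser2P KD points stand above Ser2P controls in 7 genes, and in Wapl the Ser5P KD points, 1677 and 1310 bp, stand below the Ser5P controls, an order that did not hold with lists cut to equal size.

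Of the 9 genes 6 carried Ser2P over the body and 3′ end in all 4 Ser2P libraries (26.4% of all genes). No gene was control-only or KD-only for Ser5P at the promoter (0.446% and 0.409% of genes) or for Ser2P over the body and 3′ end (0.548% and 2.25%). Single sites did show such patterns. There were 6 Ser2P sites in both KD libraries and in neither control (5.07% of all Ser2P sites). They were 1 each in Ctcf at 41.7 kb, Rad21 at 2.52 kb, Smc1a at 31.3 kb, Stag1 at 156 kb, Nipbl at 32.0 kb and Wapl at 58.6 kb. The −log10 q of their Ser2P peaks ran from 2.53 to 9.06. Both Ser2P KD libraries were deeper (1.12 and 1.03) than both controls (0.78 and 0.439), and the part of depth was not tested. The 2 Ser5P sites in Stag2 at 24.0 kb and Wapl at 78.4 kb were control-only (4.13% of all Ser5P sites). The 9 genes held 40 sites with Ser2P alone, 12 with Ser5P alone and 27 with both.

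Tests over all genes called no member. The promoter tests used the outer 5′ end and held 6 of the 9 genes, since Rad21, Nipbl and Wapl had no coverage there. The tests of gene bodies held all 9. For Ser5P at promoters limma passed 0 of 9799 genes (0.0% in either direction) at an adjusted p of 0.05, with 864 (8.82%) at an unadjusted p under 0.05, of which Ctcf was the only member. For Ser2P at promoters it passed 0 of 10049 genes, with 1471 (14.6%) at an unadjusted p under 0.05, again with Ctcf as the only member. For Ser2P over body and 3′ end it passed 0 of 10650 genes, with 1053 (9.89%) at an unadjusted p under 0.05, among them Rad21 and Smc1a. The 9 members had a median KD minus control difference of 1.06 points there, with 8 positive and 1 negative, beside a median of 0.587 points and 77.1% positive over all genes tested. Between antibodies 12 promoters were covered more by Ser2P (0.116%) and 62 less (0.599%) of 10342 genes, none of them a member. Ctcf came nearest, with 17.5 points more of its promoter under Ser2P than Ser5P over both lines (SE 5.81; limma adjusted p = 0.287). Most of this came from the KD line, where mean coverage was 1306.0 bp for Ser2P and 678.0 bp for Ser5P. In the control line it was 509.5 and 436.5 bp. Of 9348 gene bodies 2 were covered more by Ser2P (0.0214%) and 3 less (0.0321%), again with no member.

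Genes that act with cohesin were mostly marked as well. Of 12 cohesin regulators 10 had Ser5P at a start in all 4 Ser5P libraries, beside 40.5% of all genes and 7 of the 9 members. Ser5P covered 266 to 476 bp of the promoter of Pds5a and 468 to 595 bp of that of Pds5b, whose proteins bind cohesin together with Wapl. It covered 1008 to 1445 bp in Cdca5, which encodes the cohesion protector sororin, and 618 to 749 bp in Esco1, an acetyltransferase of Smc3. Over the 4 Ser2P libraries Pds5a carried 1733 to 4086 bp in its body and 3′ end and Pds5b 255 to 1865 bp, while Cdca5 carried 0 bp in each. Hdac8, the Smc3 deacetylase, had Ser5P at its start in 2 of the 4 Ser5P libraries.

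The germ-line relatives were unmarked. Stag3, Smc1b, Rec8, Rad21l and Ctcfl, the meiotic cohesin subunits and the CTCF paralogue, had no Ser5P promoter peak in any library. The only peak among them for Ser2P was an overlap of 16 bp in Rec8 in Ser2P KD 1. All 14 condensin and SMC5/6 genes, the related SMC complexes, had Ser5P at the promoter in all 4 libraries, among them Smc2, Smc4, Ncapd2 and Ncaph. Ncaph was KD-only for Ser2P over its body and 3′ end, as were 2.25% of all genes. It had 0 and 0 bp in the control line against 603 and 662 bp in the KD line. All 12 other looping and insulation genes, such as Yy1, Ldb1, Zfp143 and Maz, had Ser5P at a start in all 4 libraries. Zfp143, a zinc-finger factor found at loop anchors, was also KD-only for Ser2P (2.25% of all genes), with 740 and 323 bp in the KD libraries. Hbb-bt was control-only for Ser2P (0.548% of all genes), with 217 and 203 bp in the controls. It is an adult beta globin gene whose reads can be shared with a near-identical copy. No gene of these lists passed limma for KD against control.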

How the data were processed

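CUT&Tag for Ser5P and Ser2P was deposited as 8 MACS2 peak lists, 1 per library. The submitters' processing notes name GRCm38/mm10, MACS2 2.2.7.1 as caller, Bowtie2 2.3.5 as aligner, and also SAMtools 1.9, cutadapt 2.7, deepTools 3.3.1 and Picard 2.21.4. Settings and any control library were not given in the sources used here. With each peak the authors deposited a display score, a fold enrichment as a ratio, the −log10 p-value and −log10 q-value, and the summit offset. Fold and p are the authors' values and served only to rank, filter or describe peaks within a list.

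Members and gene lists were chosen with earlier results of these data known. Named are all members, some of their neighbours, and in each list of related genes every control-only, KD-only or limma-passing gene plus at least its first 4 genes. Cell-type markers are named in part. Some genes of the lists are counted but not reported here by name. Gene intervals came from RefSeq (GRCm38.p6). Of 21887 protein-coding genes 21536 received a strand, from the RefSeq promoter table (17492) or by symbol (3649) or synonym (395) from GENCODE vM1. Exons were not used here. Summits within 1000 bp of the outer 5′ end were promoter peaks, those from 1000 bp before the 3′ end on were 3′-end peaks, and those between were gene-body peaks. Control-only means a peak in both controls and neither KD library, and KD-only the reverse. Covered shares were compared with limma 3.58.1 (Benjamini-Hochberg over all genes covered, adjusted p 0.05), antibodies with the line as a covariate, after a test on simulated data. Peaks overlapping by 1 bp were merged into sites. Depth came from whole-number pileups solved from fold and p (tolerance 0.001 on −log10 p), which solved over 99.9% of peaks. Same-numbered libraries deviated together with correlations of 0.0379 and 0.0255 between lines, so the numbers were not taken as pairs. Alternatives were a stricter q, equal list sizes, thinning, other windows, no filter and covered shares divided by the library mean. Others left out each library or used a replicate block. Chosen after seeing the data were windows at RefSeq starts, Ser2P promoter tests, the counts of genes covered more in both KD libraries under each alternative, the alternatives for Wapl and Stag1, and the motifs.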

Additional observations from a re-analysis of the deposited data

Results flagged for a closer look

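Wapl drew attention because its 2 KD libraries moved one way for Ser5P and the opposite way for Ser2P, without overlap with the controls. Over the gene body, KD minus control was −205.5 bp for Ser5P and 1504.5 bp for Ser2P. Over the body with 3 kb past the 3′ end it was −473.0 bp for Ser5P and 1250.0 bp for Ser2P. Both windows include the peak at the inner RefSeq start of Wapl. In the second window the groups overlapped with lists cut to equal size, where the Ser5P difference was 340.0 bp. For the second window the difference between the antibodies was tested, with a limma adjusted p of 0.663, and for the first it was not tested. Depth was also higher in the Ser2P KD libraries (1.12 and 1.03) than in the Ser2P controls (0.78 and 0.439), and the part of depth in the Ser2P difference was not tested.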

How the results depend on the processing

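Over body and 3′ end of Wapl the Ser5P difference of −473.0 bp turned to 340.0 bp with lists cut to equal size, and the cause was not tested. No difference recomputed for Ctcf, Rad21, Smc1a or Stag1 changed sign, and those of other members, the differences between KD effects and single summits were not recomputed. In every setting run no member passed limma. With −log10 q from 5 up, with lists cut to equal size and with thinning, the count of members covered more by Ser2P in both KD libraries over body and 3′ end went from 7 to 3, 4 and 1. Without 1 library each, this count was 7 to 8, beside 36.7% to 64.3% of covered genes (as reported, 33.9%). That for Ser2P promoters was 3 to 5 (as reported, 3), beside 49.7% to 77.4% (as reported, 46.1%). That for Ser5P promoters was 2 to 3, beside 37.9% to 48.7% (as reported, 25.6%). Thinning made 1 member control-only for Ser2P (as reported, 0). Leaving out 1 library gave 0 to 1 members KD-only for Ser5P, 0 to 1 KD-only for Ser2P and 0 to 1 control-only for Ser2P. Over all genes, the Ser2P body and 3′-end test passed 177 genes with no filter and 5 when the window stopped at the 3′ end (as reported, 0). The Ser2P promoter test passed 1 with no filter (as reported, 0).

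With the replicate number as a block the antibody test passed 12 promoters (as reported, 74), 0 gene bodies (as reported, 5) and 6 summit positions (as reported, 17), and no member. The numbers were not taken as pairs. Leaving out 1 library gave 23 to 89 promoters, 0 to 16 gene bodies and 10 to 27 summit positions. Gene bodies passing were 16 with −log10 q of at least 5 and 19 with equal numbers of peaks.

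Presence at depth 0.439 cannot be read as absence, covered bp grows with peak width and depth, thinning does not narrow peaks, and 2 libraries a group limit every interval.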
